A study of Mus musculus with 2 samples.

Results

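The cells described here are those with high mitotic transcripts in cultures of bone marrow derived macrophages, macrophages grown from marrow cells in a dish. They were chosen by a score on the measured values: the unique molecular identifiers (UMIs, each standing for 1 captured RNA molecule) of Mki67, Top2a, Cenpf, Ube2c, Birc5 and Ccnb1, summed per 10000 UMIs of the cell, with a cell taken at a score of 10 or more. Of 23101 kept cells, 10916 passed: 5645 of 12123 in the library from cells given Tamm-Horsfall protein (THP) and 5271 of 10978 in the vehicle library. Both cultures came from wild-type 129Sv mice and were grown with 50 ng/ml macrophage colony-stimulating factor. On day 7 they received, for 18 h, 1 µg/ml of a truncated THP that does not polymerize, or 5% dextrose. The labels do not say how many mice or dishes went into a library. With 1 library per treatment, no difference below has a replicate check, and treatment, dish and library cannot be told apart. Intervals are exact 95% intervals, except for the difference of 2 shares, where the normal approximation was used, and they cover counting error only.

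In the cell cycle, DNA and histones are made in S phase, and the genes of chromosome segregation are transcribed mainly in G2 and mitosis. Many of the latter carry a DREAM complex site in the promoter, the cell cycle genes homology region, often with CCAAT boxes bound by NF-Y. The anaphase-promoting complex then marks cyclin B and other proteins for destruction, and the cell divides. Macrophage colony-stimulating factor acts through the receptor Csf1r as a growth factor for the macrophage lineage, and neutrophil precursors stop dividing as they mature.

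Kept THP cells held 224825484 UMIs and kept vehicle cells 207662132. Passing cells were the deeper ones, with a median of 20500 UMIs against 12578.5 in the other kept THP cells, and 22194 against 11630 in vehicle. No doublets were removed. Among the 5% of cells with the most UMIs, 79.1% passed in THP and 78.9% in vehicle. Of the kept cell barcodes, 38 occurred in both libraries, 9 of them passing in both. Over the 8005 genes compared in passing cells (at least 10 CPM, UMIs per 1000000 summed UMIs, in at least 1 library), the median log2 ratio of CPM + 1, THP over vehicle, was -0.17. Scaling by TMM moved it to 0.08. Long genes had lower ratios: Spearman's rho of the log2 ratio with the longest annotated transcript was -0.53 across 8004 genes, and the medians ran from 0.10 in the shortest to -0.49 in the longest of 5 equal groups of genes. Genes are not independent replicates, so this describes the libraries.

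The promoters of 3 of the genes that define the cells are shown for the motifs of the G2 and mitosis program that they carry, which differ between them. Each is the 120 bases just before the RefSeq start (GRCm38.p6), 5′ to 3′ on the gene's strand, with TTTGAA (the core of the homology region) and CCAAT in capitals in either orientation, so that TTCAAA and ATTGG are also marked.
Mki67: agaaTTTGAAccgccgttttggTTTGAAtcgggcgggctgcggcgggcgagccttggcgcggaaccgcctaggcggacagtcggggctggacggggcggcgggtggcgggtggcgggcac
Top2a: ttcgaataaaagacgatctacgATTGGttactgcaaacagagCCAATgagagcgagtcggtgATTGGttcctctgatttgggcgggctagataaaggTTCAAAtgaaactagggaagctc
Cenpf: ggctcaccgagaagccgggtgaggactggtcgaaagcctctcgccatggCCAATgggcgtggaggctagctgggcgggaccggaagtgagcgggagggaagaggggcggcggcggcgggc
The stretches are chr7:135716380-135716499 (minus strand), chr11:99024190-99024309 (minus) and chr1:189688087-189688206 (minus). Within 250 bases upstream, CCAAT was found for 5 of the 6 genes and TTTGAA for 3, Mki67, Top2a and Ube2c. In the stretches printed, Mki67 has TTTGAA alone, Cenpf has CCAAT alone and Top2a has both. Further upstream, within the 250 bases, Mki67 also has 3 CCAAT matches. Birc5, not printed, has neither motif within 250 bases of its RefSeq start. Of 57 G2 and mitosis genes with a promoter entry, 40 (70.2%) held CCAAT and 18 (31.6%) held TTTGAA. Of all 27025 genes with an entry, 37.5% held CCAAT and 18.3% held TTTGAA. Of 21 S phase genes, 15 held CCAAT and 3 held TTTGAA. These are letter matches in a window, searched on both strands. The RefSeq start matches the GENCODE gene start for Top2a and Cenpf, but not for Mki67, Ube2c, Birc5 and Ccnb1. For those genes, which matches fall in the window depends on the start used.

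The label "mitotic" was checked against genes that the score did not use. A set of 25 S phase genes (such as the Mcm helicase subunits, Pcna and Tyms) was highest in the passing cells with the lowest scores. In THP the median S phase sum was 19.7 per 10000 UMIs at scores of 10 to 20, 13.5 at 20 to 40 and 8.76 at 40 or more. In vehicle it was 31.1, 21.8 and 13.2. A sum of at least 10 for the S phase set was found in 70.2% of passing THP cells and 83.0% of passing vehicle cells (72.0% and 84.2% after thinning every cell to 10000 UMIs). Other kept cells reached that sum in 39.1% and 40.4% (55.8% and 63.2% after thinning), so it is not particular to passing cells. The rule takes in cells with S phase as well as G2 and mitosis transcripts, and they are called passing cells below. No phase was measured. The score itself has no gap at the threshold. The lowest passing scores were 10.0056 in THP and 10.0027 in vehicle, and the highest failing ones 9.99001 and 9.99188. In THP 479 cells lay at 8 to 10 and 491 at 10 to 12, and in vehicle 375 and 274.

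**Figure D1:**
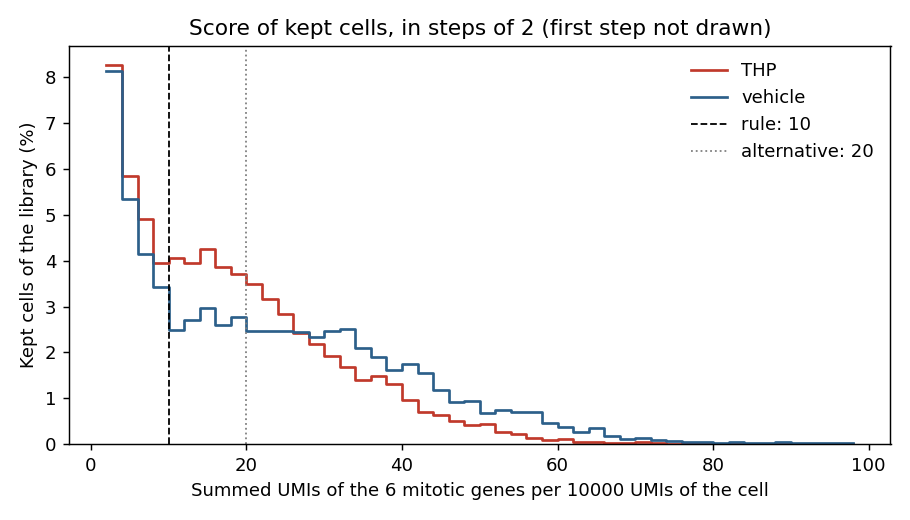
Distribution of the score, the summed UMIs of the 6 genes per 10000 UMIs of a cell, as the percentage of kept cells in steps of 2, for the THP library (red) and the vehicle library (blue). The THP line is the higher one just above the threshold of 10, and the vehicle line is the higher one above about 30. At scores of 40 or more, Mki67, Top2a and Cenpf were higher in vehicle, and Ube2c, Birc5 and Ccnb1 were higher in THP.

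Over all kept cells, the libraries differed in how strongly cells scored more than in how many passed. The difference in passing shares varied with depth. The THP library had 46.6% passing cells (45.7 to 47.5%) and the vehicle library 48.0% (47.1 to 49.0%), which differ by -1.45 points of percentage, with an interval of -2.74 to -0.161. The median score of passing cells was 22.0 in THP and 28.7 in vehicle. A score of 40 or more was reached by 10.4% of passing THP cells and 24.4% of passing vehicle cells. Of kept cells, scores of 10 to 20 held 19.8% in THP and 13.5% in vehicle, scores of 20 to 40 held 21.9% and 22.8%, and scores of 40 or more held 4.84% and 11.7%. At a threshold of 20 the shares were 26.7% and 34.5% (-7.73 points), and at a threshold of 5 they were 58.2% and 58.0% (0.144 points). With each library's cells split by UMIs into 5 equal groups, 13.5% of THP and 7.60% of vehicle cells passed in the shallowest. The THP share was lower in every other group, with 70.9% and 74.6% in the deepest. In cells of at least 10000 UMIs, not thinned, the shares were 56.1% and 60.3% (-4.22 points). A score of 0 was found in 18.8% of THP and 19.9% of vehicle cells. All 6 genes were detected in 65.3% and 65.1% of passing cells.

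Those values rest on the 6 genes of the rule, and their levels in passing cells are a description of the cells it chose. Mki67, a chromosome surface protein and proliferation marker, was at 367 CPM (364 to 370) in passing THP cells and 747 (742 to 752) in passing vehicle cells, a log2 ratio of -1.02. Top2a, the topoisomerase that untangles sister chromatids, was at 548 and 896 CPM (-0.71). Cenpf, a large kinetochore and microtubule-binding protein, was at 221 and 345 CPM (-0.64). Mki67 alone lay past 2-fold, and short of it with TMM scaling (-0.77) or centring on the median (-0.86). Ube2c, the ubiquitin-conjugating enzyme of the anaphase-promoting complex, was at 611 CPM in THP and 482 in vehicle (0.34). Birc5 (survivin), a subunit of the chromosomal passenger complex, was at 537 and 452 CPM (0.25). Ccnb1, cyclin B1, was at 149 and 129 CPM (0.21). The ratios of the first 3 were below 0 and those of the last 3 above 0, also with TMM scaling.

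**Figure D2:**
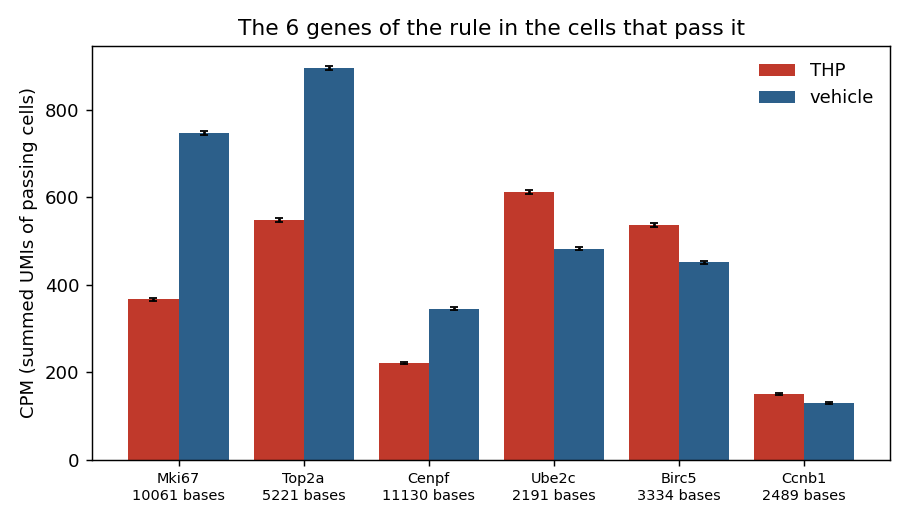
CPM of the 6 score genes over all passing cells of the THP library (red) and the vehicle library (blue), with exact 95% counting intervals and, under each name, the longest annotated transcript. Mki67, Top2a and Cenpf, with transcripts of 5221 to 11130 bases, are lower in THP, and Ube2c, Birc5 and Ccnb1, with 2191 to 3334 bases, are higher.

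The 3 genes with ratios below 0 have the longest transcripts of the 6 (10061 bases for Mki67, 5221 for Top2a and 11130 for Cenpf). With the trend over transcript length removed, the log2 ratios were -0.44 for Mki67, -0.32 for Top2a and -0.03 for Cenpf, and 0.37 for Ube2c, 0.45 for Birc5 and 0.28 for Ccnb1. Whether length has a part in the ratios was not tested further. The choice of genes sets which library has the larger share of passing cells. Scored on Mki67, Top2a and Cenpf alone with a threshold of 5, 43.6% of THP and 51.7% of vehicle cells passed. Scored on Ube2c, Birc5 and Ccnb1 alone, 45.8% of THP and 38.1% of vehicle cells passed. These 2 scores were added after the data had been seen.

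Passing cells carried the markers of several myeloid lineages. Markers were scored as gates, meaning a summed level of at least 20 per 10000 UMIs for a fixed list, and a cell could lie in more than 1 gate. In the macrophage gate, whose list includes Adgre1, C1qa, C1qb, C1qc, Mertk and Mrc1, 970 of 1916 THP cells passed (50.6%) and 707 of 1380 vehicle cells (51.2%). In the myeloid progenitor gate, set by the primary granule genes Mpo, Elane, Prtn3 and Ctsg with Ms4a3, 1092 of 1906 THP cells passed (57.3%, 55.0 to 59.5%) and 1509 of 2361 vehicle cells (63.9%, 61.9 to 65.9%). In the gate of the monocyte genes Ly6c2, Ccr2, Vcan and F13a1 the shares were 49.8% and 53.6%. Of that gate, 1350 of 2346 THP cells and 1654 of 2882 vehicle cells also lay in the progenitor gate, and its passing cells had Mpo at 3054 CPM in THP and 3487 in vehicle. The gate of MHC class II genes had 45.0% passing in THP and 51.3% in vehicle. By the full score, the THP share was thus the lower one in each of these gates, within counting error for macrophages. In passing cells of each of these gates, Mki67, Top2a and Cenpf were lower with THP, and Ube2c, Birc5 and Ccnb1 were higher. Gate shares on either set of genes alone were not tested, and over all kept cells the direction depended on the set.

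Passing shares were lower in the gate of mature than of immature neutrophil genes in both libraries. In the immature neutrophil gate, set by the secondary granule genes Ltf, Ngp and Camp with Ly6g and Cebpe, 40.5% of THP and 43.3% of vehicle cells passed. With cells thinned to 5000 UMIs these shares were 60.0% and 66.0%, beside 58.4% and 65.8% in the progenitor gate. Cells in both the progenitor and the immature neutrophil gate passed in 357 of 555 cases in THP (64.3%) and 526 of 708 in vehicle (74.3%). In the mature neutrophil gate (Retnlg, Cxcr2, Stfa2l1), only 48 of 820 THP cells (5.85%) and 55 of 1081 vehicle cells (5.09%) passed. Mature neutrophils are small cells with little RNA, and the gate's median was 2572 UMIs in THP and 2291 in vehicle. Among the few of at least 5000 UMIs, thinned to that depth, 26.1% of 153 and 33.3% of 126 passed. In the B cell gate, 1 of 87 and 1 of 56 cells passed, at median depths of 1915 and 2887 UMIs, as values from another lineage, where free RNA and doublets can add UMIs. Of cells in the mast cell or basophil gate, 21 of 53 and 16 of 39 passed, and of the stromal gate 17 of 73 and 21 of 69.

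**Figure D3:**
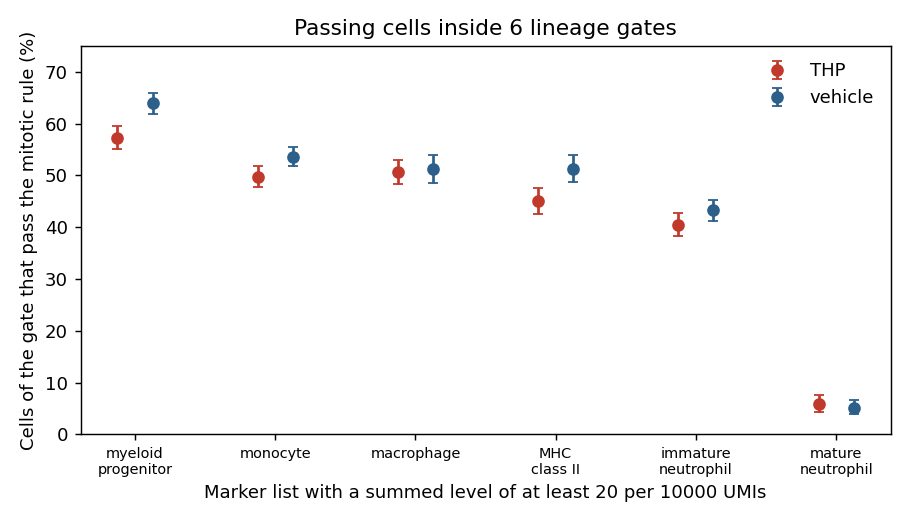
Percentage of the cells in each of 6 lineage marker gates that pass the score of 10, in THP (red) and vehicle (blue), with exact 95% counting intervals. The mature neutrophil gate is lowest at 5.85% and 5.09%; the myeloid progenitor gate, at 57.3% and 63.9%, is highest without thinning but not with cells thinned to 5000 UMIs.

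The mix of lineages differed between the libraries in passing and in other cells alike. The progenitor gate held 19.3% of passing THP cells and 28.6% of passing vehicle cells, the monocyte gene gate 20.7% and 29.3%, the immature neutrophil gate 13.7% and 19.3%, and the macrophage gate 17.2% and 13.4%. None of the 6 gates took 41.2% of passing THP cells and 28.3% of passing vehicle cells. In the other kept cells the THP and vehicle shares were 12.6% and 14.9% in the progenitor gate, 18.2% and 23.4% in the monocyte gene gate, 17.5% and 23.4% in the immature neutrophil gate, 14.6% and 11.8% in the macrophage gate and 37.9% and 27.3% in none. Passing cells outside the 6 gates still had the macrophage receptor Adgre1 (F4/80) at 348 CPM in THP and 254 in vehicle, the lysozyme gene Lyz2 at 14651 and 11453, and Mpo at only 16.8 and 26.9. Scores of 20 or more were reached by 28.8% of THP and 36.3% of vehicle cells in the macrophage gate. In the progenitor gate the shares were 28.0% and 43.2%, and in the immature neutrophil gate 23.1% and 34.9%. In the MHC class II gate they were 25.5% and 37.5%, and in the mature neutrophil gate 2.80% and 2.96%. Apart from the mature neutrophil gate, the counting intervals did not overlap, but they leave out variation between dishes and libraries. The shares also rest on the score genes. In passing cells of each of these gates, Mki67, Top2a and Cenpf were lower with THP, and Ube2c, Birc5 and Ccnb1 were higher.

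Outside the score genes, passing cells were set apart by the machinery of cell division. Since the cells were chosen on genes of the same program, this is a description. In THP, 226 of 7606 genes were at least 2-fold higher in passing than in other kept cells (2.97%) and 61 were lower (0.802%). In vehicle 273 of 8112 were higher (3.37%) and 93 lower (1.15%). With equal weight per cell, 196 were lower in THP, and 414 were higher and 297 lower in vehicle. Ranked by the smaller of the 2 libraries' ratios, the first was Nusap1, a spindle microtubule protein, at 163 CPM in passing against 13.9 in other cells in THP and 199 against 6.76 in vehicle. Next came Plk1, the polo-like kinase of mitotic entry, at 78.2 against 6.75 and 90.5 against 4.92 CPM. Aspm, a spindle pole protein, was at 51.0 against 4.40 and 105 against 4.48 CPM. Prr11, Prc1 (a crosslinker of the central spindle), the spindle pole kinase Aurka, the kinetochore motor Cenpe, the phosphatase Cdc25b, Fam83d and the motor Kif2c completed the first 10 in that ranking, with log2 ratios of 2.94 to 3.22 in THP and 2.96 to 3.95 in vehicle. The mature neutrophil genes were the reverse. Retnlg was at 22.7 CPM in passing and 336 in other THP cells, and at 39.7 and 651 in vehicle, and all 3 genes of that list were lower by the same rule.

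Between the libraries, 83 of 8005 genes were at least 2-fold higher with THP in passing cells (1.04%) and 228 were lower (2.85%). In the other kept cells 69 of 7908 were higher (0.873%) and 255 lower (3.22%). With TMM scaling the passing cells had 139 higher (1.74%) and 69 lower (0.862%), and with the length trend removed 120 (1.5%) and 72 (0.9%), so the balance of higher and lower genes depends on the scaling.

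Most genes of mitosis and DNA replication had ratios below 0 in passing THP cells, nearly all short of 2-fold. Of 110 compared genes in 7 cell cycle lists, 98 had a log2 ratio below 0, with a median of -0.41 against -0.17 over all genes. Only Dtl, Kif14, E2f8 and Kif11 were more than 2-fold lower, and none was higher. With TMM scaling 72 were below 0 and none passed the 2-fold rule, the median being -0.16 against 0.08 over all genes, and with the length trend removed 89 were below 0 and none passed. In the other kept cells, which the same score chose for low values, 56 of 88 compared genes were below 0 and the median was -0.15.

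The 18 mitotic cyclins and kinases ran from -0.78 to 0.14, and none reached 2-fold. Cdk1, the kinase that cyclin B activates, was at 265 CPM in THP and 240 in vehicle (0.14). Ccnb2 was at 147 and 141 CPM, Aurka at 77.7 and 79.2, and Plk1 at 78.2 and 90.5. Of the spindle checkpoint kinases, Bub1 was at 59.9 and 98.4 CPM (-0.71), Ttk at 26.6 and 43.2 (-0.68) and Bub1b at 64.8 and 95.6 (-0.55). Mastl, which restrains the phosphatase that opposes Cdk1, was at 19.1 and 33.5 CPM (-0.78). The median of the list's 18 genes was -0.21, and 0.05 with TMM scaling.

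Kinetochore and spindle genes were further below, before any correction for transcript length. Knl1, the scaffold that brings checkpoint proteins to the kinetochore, was at 87.3 and 169 CPM (-0.94), and Cenpe at 152 and 245 (-0.69). The 15 genes of kinetochores and the chromosomal passenger complex had a median of -0.41. Kif11, the motor that pushes spindle poles apart, was at 91.5 CPM in THP and 185 in vehicle (-1.01). Kif14, a motor of cytokinesis, was at 15.2 and 34.8 (-1.14). The 24 spindle and cytokinesis genes had a median of -0.52, and 23 were below 0. In the other kept cells the ratios of Kif11 and Kif14 were -0.18 and -0.27. After the length trend was removed, the ratios in passing cells were -0.66 for Kif11, -0.60 for Kif14, -0.44 for Knl1 and -0.18 for Cenpe.

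Genes of the anaphase-promoting complex and its targets had a median of 0.09 over 9 genes, the one list median of the 7 above 0; with TMM scaling that of the cyclins and kinases was above 0 too. Pttg1 (securin), the inhibitor of separase, was at 93.0 CPM in THP and 62.8 in vehicle (0.56), and Ube2s, which extends ubiquitin chains for the complex, at 726 and 564 (0.36). Fbxo5 (Emi1), which inhibits the complex before mitosis, was at 75.8 and 110 CPM (-0.53). None reached 2-fold. The 12 condensin and chromatin genes had a median of -0.52 and none reached 2-fold, the lowest being the condensin subunits Ncapg2 at 44.1 and 84.2 CPM (-0.92) and Ncapd2 at 44.1 and 83.9 (-0.91).

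Of the S phase genes, Dtl, the substrate receptor that degrades licensing factors during replication, was at 15.3 CPM in THP and 36.0 in vehicle (-1.18). Its ratio in other kept cells was -1.15. The helicase loader Cdc6 was at 12.8 and 25.5 CPM (-0.95) and the checkpoint mediator Clspn at 55.9 and 107 (-0.93). The sliding clamp Pcna was at 60.9 and 61.2 CPM (-0.01), and thymidylate synthase Tyms at 230 and 233 (-0.02). The median of 24 compared genes was -0.40, so the list holds members near and beyond 2-fold lower and members that were level. Of the 8 transcription factors of the cycle, all 8 were below 0, and the repressor E2f8 was at 33.7 and 73.7 CPM (-1.11).

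**Figure D4:**
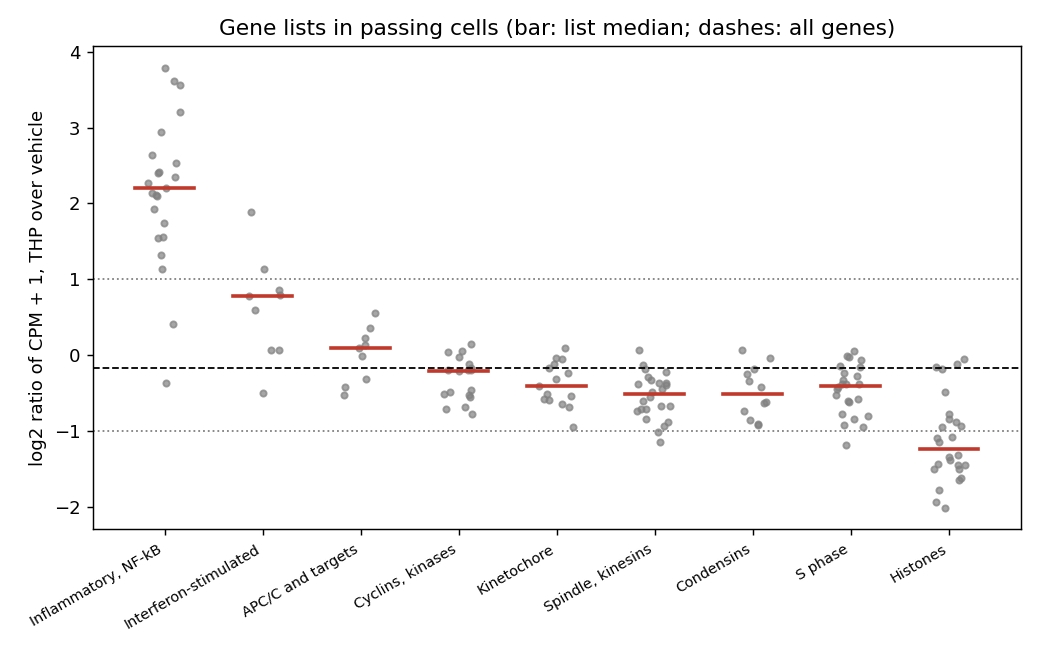
Log2 ratio of CPM + 1, THP over vehicle, in passing cells for each compared gene of 9 lists, with the list median as a red bar, the median of all genes (-0.17) dashed and the 2-fold limits dotted. Inflammatory genes lie highest with a median of 2.20, and histone genes lowest with a median of -1.23.

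Replication-dependent histones, whose genes are switched on in S phase to package new DNA, had the lowest median of the 9 lists plotted. They were examined after 4 of them had appeared among the 10 lowest genes, so their count is no independent support. Of 67 listed histone genes, 26 could be compared, and 16 were more than 2-fold lower with THP, beside 2.85% of all genes. All 26 were below 0, with a median of -1.23; with TMM scaling 22 were below 0 and 13 more than 2-fold lower. Hist1h1b, a linker histone H1 gene, was at 335 CPM in passing THP cells and 951 in passing vehicle cells (-1.50). Hist1h1e, another H1 gene, was at 168 and 643 CPM (-1.93). Hist1h3c, an H3 gene, was at 37.5 and 154 (-2.01), and Hist1h2ap, an H2A gene, at 107 and 371 (-1.78). Hist1h4h was at 9.24 and 30.9 (-1.64). Summed, histone genes made up 1203 CPM in THP and 3425 in vehicle.

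In the other kept cells the histone sum was 318 CPM in THP and 500 in vehicle. There 12 genes reached 10 CPM, with a median of -0.53 and 1 more than 2-fold lower. That gene was Hist1h1e, at 35.6 CPM in THP and 101 in vehicle (-1.47). At scores of 0 to 5 it was at 21.5 and 79.5 CPM, so its lower level was not particular to passing cells. Along the score of passing cells the median ratio was -0.82 at scores of 10 to 20, -1.28 at 20 to 40 and -1.56 at 40 or more. Within lineage gates the medians were -0.93 in the monocyte gene gate, -0.94 in the macrophage gate, -1.03 in the immature neutrophil gate, -1.09 in the MHC class II gate and -1.10 in the progenitor gate. The genes are short, and removing the length trend left 19 more than 2-fold lower. Most histone transcripts lack the poly(A) tail by which these libraries capture RNA, and several are near-identical copies whose reads can be split or dropped, so single histone values are uncertain.

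**Figure D5:**
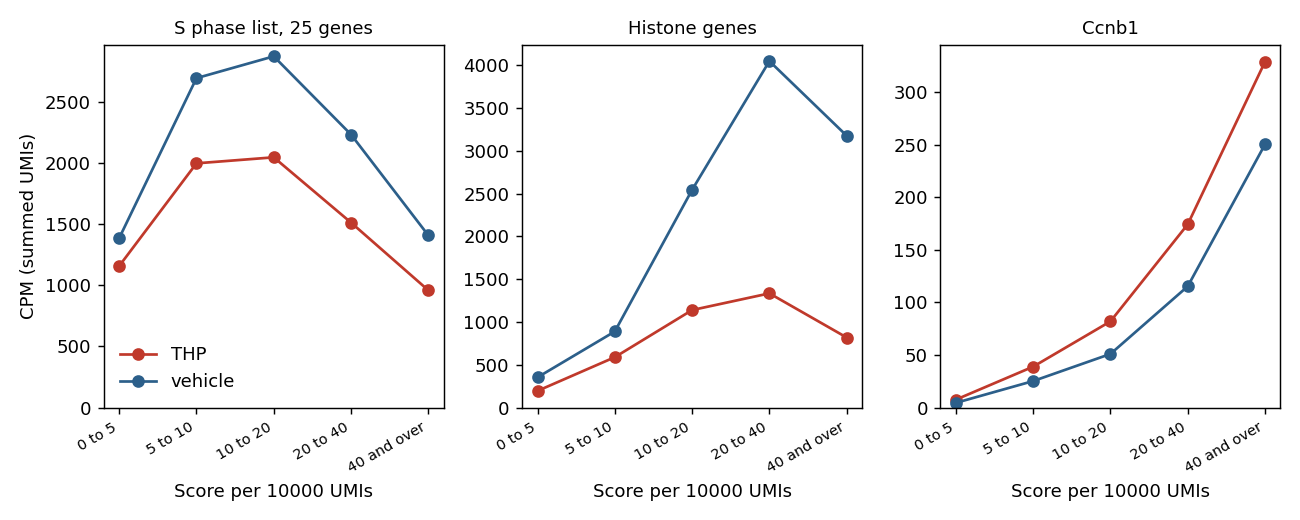
Summed CPM of 25 S phase genes (left), of all histone genes (middle) and of Ccnb1 (right) in cells grouped by score, for THP (red) and vehicle (blue); the score includes Ccnb1. The S phase sum is highest at scores of 10 to 20 in both libraries, and the histone sum at scores of 20 to 40, with 1334 CPM in THP and 4046 in vehicle.

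Of 11 compared inhibitors, 2 were lower with THP, beside 2.85% of all genes, and none was higher. Cdkn1b (p27), which holds cyclin-dependent kinases inactive, was at 21.9 CPM in THP and 57.0 in vehicle (-1.34). Rbl2 (p130), a pocket protein of the DREAM complex, was at 19.3 and 42.1 (-1.09), short of 2-fold with TMM scaling (-0.84) or the length trend removed (-0.72). Gadd45a, a stress-response gene, was at 14.6 and 6.93 CPM (0.98), just short of 2-fold, which it passed with TMM scaling. The ratios of Cdkn1b and Rbl2 in other kept cells were -1.47 and -1.04. Cyclin D1 (Ccnd1), the main G1 cyclin here, was at 432 and 444 CPM (-0.04), and Myc at 36.6 and 32.6 (0.16). The growth factor receptor Csf1r was at 241 and 218 CPM (0.14). Kit, the stem cell factor receptor of progenitors, was at 7.60 and 20.2 CPM (-1.30). Its ratio was -0.84 within the progenitor gate and -1.06 within the immature neutrophil gate.

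Inflammatory genes were higher with THP in cells that carried mitotic transcripts. Of 23 compared genes of the inflammatory and NF-kB list, 21 were more than 2-fold higher, beside 1.04% of all genes, with a median log2 ratio of 2.20. The exceptions were Il1rn (29.0 and 21.5 CPM) and Lcn2 (663 and 852 CPM). This list, like the others, was chosen with earlier results of these data known, so its count is no independent support. The count was 21 also with TMM scaling and with the length trend removed. In other kept cells it was 20 of 23, with a median of 1.87, so the list was high in both kinds of cell. Acod1, the enzyme that makes itaconate, was at 63.4 CPM (62.0 to 64.7) in passing THP cells and 3.67 in passing vehicle cells, a log2 ratio of 3.79. Saa3, an acute-phase protein, was at 126 and 9.39 CPM (3.61). The interleukin-1β gene Il1b was at 44.7 and 2.87 (3.56). The neutrophil-attracting chemokines Cxcl1 and Cxcl2 were at 54.4 and 5.03 CPM (3.20) and at 599 and 113 (2.40). Tnf, the cytokine tumour necrosis factor, was at 113 and 17.4 CPM (2.63), and the chemokines Ccl4 and Ccl3 at 227 and 28.8 (2.94) and 163 and 27.5 (2.53). The reads of Ccl3 and Ccl4, close copies, may be split between them.

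Cell by cell, at equal depth, the share of passing cells with a transcript differed in the same way. After thinning to 10000 UMIs, which left out 3565 THP and 3275 vehicle cells, Tnf was found in 46.8% of passing THP cells (45.4 to 48.3%) and 13.1% of passing vehicle cells (12.1 to 14.1%), and in 48.8% and 13.9% of the other cells. Without thinning the passing shares were 58.5% and 23.9%. Acod1 was found in 30.1% and 2.60% of passing cells, and Cxcl2 in 70.0% and 29.2% (unthinned 40.8% and 4.76%, and 70.3% and 35.6%). In cells with a score of 40 or more, Tnf was found in 41.5% and 12.2%, and Ccl4 in 27.3% and 4.91%, against 42.1% and 10.3% over all passing cells. The B cell gate of the THP library, at a median of 1915 UMIs, is set beside them as cells of another lineage. It had 11 Cxcl2 UMIs (48.4 CPM), 2 Tnf UMIs (8.79 CPM, 1.06 to 31.8) and 0 Acod1 UMIs (at most 16.2 CPM) among 227460. Those levels are below the passing cells', and the part of free RNA in either was not tested. The gate's 4 Il1b UMIs (17.6 CPM, 4.79 to 45.0) have an interval that includes the 44.7 CPM of passing THP cells. It also held Lyz2 at 1473 CPM and Mpo at 233 CPM. In vehicle the B cell gate had 3 Cxcl2, 1 Tnf, 0 Il1b and 0 Acod1 UMIs among 192120. The THP level was thus the higher one in this gate too, on few UMIs, except for Acod1.

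The ratios were above 0 in each lineage gate, and both their size and the levels differed between gates. Tnf was at 156 CPM in passing THP cells of the macrophage gate and 27.8 in vehicle (2.44), and at 41.8 and 7.58 in the progenitor gate (2.32). Cxcl2 was at 670 and 139 CPM in the macrophage gate (2.26), 129 and 11.2 in the progenitor gate (3.41) and 240 and 30.1 in the immature neutrophil gate (2.95). Il1b was at 95.3 and 3.45 CPM in the macrophage gate (4.44) and 10.6 and 2.79 in the progenitor gate (1.61). Levels in the progenitor gate of the THP library were thus below those in the macrophage gate for all 3 genes. Its Cxcl2 level was above the 48.4 CPM of the B cell gate, whose interval is 24.1 to 86.5, while its Il1b level lay within the B cell gate's interval, and its Acod1 level of 14.3 CPM was under that gate's upper limit.

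Of 9 compared interferon-stimulated genes, 2 were more than 2-fold higher with THP, beside 1.04% of all genes, with a list median of 0.79; with TMM scaling 5 were. Cxcl10, a lymphocyte-attracting chemokine, was at 86.9 and 22.7 CPM (1.89), and Rsad2 (viperin) at 21.5 and 9.26 (1.13). Rsad2 was short of 2-fold with equal weight per cell (0.90) and at a score threshold of 20 (0.49), and its ratio was 0.04 in the monocyte gene gate, 0.14 in the progenitor gate, 1.34 in the MHC class II gate and 0.19 in other kept cells. Isg15 was at 87.1 and 50.1 (0.79). Fpr1, the receptor for formylated bacterial peptides, was at 44.9 and 7.57 CPM in passing cells (2.42) and 82.6 and 33.1 in other cells (1.29). Gpr84, a receptor for medium-chain fatty acids, was at 185 and 33.9 CPM (2.41).

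Besides histones, the lowest genes in passing THP cells were Abca13 (2.62 and 13.7 CPM, -2.02), the sodium-calcium exchanger Slc8a1 (2.23 and 11.1, -1.91), Rnf144b (2.66 and 11.7, -1.80), Jaml (5.41 and 20.9, -1.77) and Arhgef18 (3.80 and 14.1, -1.65). Each was lower in other kept cells too, with ratios of -1.40 to -2.22. The collagen gene Col1a1 was at 4.29 and 17.4 CPM in passing cells and 10.5 and 149 in other cells. It is a stromal marker, and the stromal list's summed level in passing cells was 27.4 CPM in THP and 66.8 in vehicle; its part in the ratio was not tested. With the 5% of cells with the most UMIs left out, the ratio of Col1a1 changed from -1.80 to -0.43. The stromal genes Col1a2 and Sparc changed from -1.24 and -1.01 to 0.02 and 0.41. Within gates the ratio of Col1a1 ran from -4.23 (macrophage) to 1.27 (MHC class II), so its low place does not hold across passing cells.

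Lineage genes in passing cells followed the gates. The 5 progenitor genes had ratios of -0.65 to -0.89, with Mpo at 605 CPM in THP and 1124 in vehicle. Among macrophage genes, Adgre1 was at 331 and 212 CPM (0.64) and C1qb at 288 and 185 (0.64), both short of 2-fold. The monocyte receptor Ccr2 was at 118 and 236 CPM (-0.99). Ltf (lactoferrin) was at 105 and 220 CPM (-1.06) and the granulocyte transcription factor Cebpe at 39.2 and 79.5, both just past 2-fold. With TMM scaling they were at -0.80 and -0.75, and within the immature neutrophil gate both were at -0.62. The basophil protease gene Prss34 was at 31.5 and 11.8 CPM (1.35), with 21 and 16 passing cells in the mast cell or basophil gate.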

How the data were processed

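The deposited values are raw UMI counts per gene and barcode (software 3.1.0, matrix format 2, per the file headers). Per the submitters' processing notes, which give no roles or versions, the tools include Cell Ranger, STAR and bcl2fastq and the build is mm10. Coordinates, lengths and 31011 of 31053 gene matches came from GENCODE annotation of that build.

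Cells were kept with at least 500 genes, 1000 UMIs and at most 10% mitochondrial UMIs. CPM is UMIs of a gene per 1000000 summed UMIs. A gene was compared at 10 CPM or more in at least 1 library and called at 2-fold on CPM + 1. On simulated counts of passing cells this found 200 of 200 genes changed 3-fold and 0 others among 7744 compared. Those counts were drawn for both libraries from the same mean profile, with counting error only. They hold no library or length difference, so they cannot show how many real calls come from these. No p-value was computed, since there is 1 library per group. Intervals are Poisson or Clopper-Pearson, and normal for a difference of shares. TMM came from edgeR 4.0.16, and the length trend was a lowess fit (statsmodels 0.14.6, span 0.3).

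Named genes were the 6 score genes, the 10 highest and 10 lowest ratios, up to 5 per list, and the 20 leading genes of passing against other cells. Others named as examples (Cdk1, Ccnb2, Pcna, Tyms, Ccnd1, Myc, Hist1h1b, Il1rn, Lcn2, among others) were chosen after their values were seen. The members and lists were chosen with earlier results of these data known, the histone list after its values were seen. No further column of values was left unmapped. 1 marker of the macrophage list is not reported here.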

Additional observations from a re-analysis of the deposited data

How the results depend on the processing

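The difference in the share of passing cells (THP minus vehicle, -1.45 percentage points) was 0.144 at a threshold of 5 and -7.73 at 20, -4.12 without Ube2c and -6.89 without Birc5. It was -4.45 with cells thinned to 5000 UMIs (-3.61 in the same cells not thinned, -9.76 thinned at a threshold of 20) and -5.11 thinned to 10000 UMIs (-4.22 not thinned, -10.9 at a threshold of 20). It was -8.09 on Mki67, Top2a and Cenpf alone and 7.63 on Ube2c, Birc5 and Ccnb1 alone. Thinning moved the difference in the immature neutrophil gate from -2.77 to -5.96 and in the mature neutrophil gate from 0.766 to -7.19.

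Genes higher with THP in passing cells numbered 83, and 139 with TMM, 47 at 50 CPM and 202 at 1.5-fold. Genes lower numbered 228, and 69 with TMM, 97 centred on the median, 95 with a pseudocount of 5, 77 at 50 CPM, 1274 at 1.5-fold and 72 with the length trend removed. Cell cycle genes lower numbered 4, and 0 with TMM or the length trend removed, 1 centred on the median and 2 at the same lineage mix. With equal weight per cell, passing against other cells gave 196 lower genes in THP, and 414 higher and 297 lower in vehicle. Histone genes lower stayed at 13 to 19 under 5 alternatives. Among single named genes, only Col1a2 and Sparc reversed, to 0.0241 and 0.41 without the top 5% of cells by UMIs. The cause of these shifts was not tested. The unthinned cells, the thinned cells at a threshold of 20, the 3-gene scores, the histone settings and the length correction of the lists were chosen after seeing the data. No paired analysis was possible because there is 1 library per group, and no library could be left out.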
